A study of Mus musculus with 12 samples.

Results

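The glycolytic enzymes GAPDH and PGK1 are represented on the array used here by 12 control probes, and these were followed across 12 mouse spleen arrays. A probe was included if it was marked as a control in the scanner file and its name contained GAPDH or PGK1, which took 6 probes for each gene. The names combine a species (Mouse, Rat or Human), the gene and a number (_3 or _5), so that each gene has 3 species versions of 2 probes. They were 12 of the 72527 features tested, the other 72515 being non-control probes that at least 1 group measured well above background on all of its arrays. The sources used here do not say what the numbers _3 and _5 stand for.

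The animals were female BALB/c mice aged 6 weeks. OVA mice received the antigen OVA (ovalbumin, an egg-white protein used to sensitise mice) into the peritoneum at 2 mg/kg on days 1, 3 and 5, and control mice received normal saline on the same days. Spleens were taken on day 14 or day 28, giving 2 saline and 4 OVA arrays for each day, with 1 dye (Cy3) and 0.5 ug of RNA labelled for each array. The labels give each array a replicate number but do not say that every array is 1 animal, so p-values measure the spread between these arrays.

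Glycolysis splits glucose into pyruvate and yields ATP and NADH without oxygen. GAPDH, glyceraldehyde-3-phosphate dehydrogenase, oxidises glyceraldehyde 3-phosphate to 1,3-bisphosphoglycerate and makes the NADH. PGK1, phosphoglycerate kinase 1, acts on that product in the next step and passes its phosphate to ADP, the first ATP-forming step of the pathway. Lymphocytes raise glycolysis when they are activated, and both transcripts are also used widely as housekeeping references. Whole spleen mixes lymphocytes, myeloid and erythroid cells and stroma, and in bulk RNA a change in the number of cells cannot be told apart from a change in RNA per cell. Gene symbols were given only to probes whose own name held a RefSeq accession. By that matching, 0 of the 31 glycolysis genes looked for had a named probe, and neither did any of the 25 spleen marker genes. Probes named in other ways were not matched to genes, so whether the array carries these genes was not settled. The rest of the pathway and the labelled tissue were therefore not examined.

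The arrays lay on 3 slides, and slide followed the groups. All 4 saline arrays were on slide 1, the OVA arrays of day 14 on slide 2 and the OVA arrays of day 28 on slide 3, with 1 scan per slide, so slide and group cannot be told apart in any comparison of OVA arrays, and only the comparison of saline days lies within a slide. The 75th percentile of the signal was between 316 and 368 on the saline slide, between 267 and 288 on the day 14 OVA slide, and between 484 and 549 on the day 28 OVA slide. OVA day 14 replicate 2 stood apart, with 57.5% of spots well above background against 72.4% to 80.0% on the other arrays, and a median negative control signal of 6.96 against 2.57 to 4.29.

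Each probe was spotted 10 times per array, which gave 1440 spots. Of these, 59 carried an outlier flag and were left out, and 0 were saturated. The flags were uneven: 7 of the 10 Human-GAPDH_3 spots on OVA day 14 replicate 4 carried one. The level of that probe there rests on the few spots left, with an SD of 0.17. In all, 1431 spots were well above background, and the other 9 were 7 spots of Rat-PGK1_3 and 2 of Human-PGK1_5, all on OVA day 14 replicate 2. By the per-array criterion applied to the other features, 11 of the 12 probes were well above background on all arrays. Rat-PGK1_3, the exception, fell short on OVA day 14 replicate 2 alone, and it met the filter through the other groups. The median SD between spots of an array was between 0.04 and 0.10 on the log2 scale for 11 probes and reached 0.20 for Rat-PGK1_3, the dimmest. Levels below are log2 signals relative to the 75th percentile of the array.

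The sequences of the probes are not used here. To place the mouse genes, the 250 bases before each start site are shown as RefSeq gives them for the build GRCm38.p6. They are shown as sequence context for the 2 genes, and nothing measured here bears on them. Capitals mark matches, on either strand, of 4 short motifs that were searched for: ACGTG (the core of the hypoxia response element), GGGCGG (the GC box), CCAAT and TATAAA. None of the matches overlapped another.
Gapdh, chr6:125165774-125166023, minus strand: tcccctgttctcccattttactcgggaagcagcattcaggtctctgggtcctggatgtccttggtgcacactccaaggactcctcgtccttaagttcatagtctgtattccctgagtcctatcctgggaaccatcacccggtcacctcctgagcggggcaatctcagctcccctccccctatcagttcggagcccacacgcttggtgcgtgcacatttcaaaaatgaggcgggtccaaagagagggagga
Pgk1, chrX:106186850-106187099, plus strand: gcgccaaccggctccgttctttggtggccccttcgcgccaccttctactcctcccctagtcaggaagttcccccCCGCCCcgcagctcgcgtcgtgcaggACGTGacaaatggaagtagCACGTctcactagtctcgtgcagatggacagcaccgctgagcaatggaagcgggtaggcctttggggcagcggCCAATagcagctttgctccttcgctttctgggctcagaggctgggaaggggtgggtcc
The Pgk1 window held ACGTG 2 times, once on each strand, and the GC box and CCAAT 1 time each. Its GC content was 62.8%, with 17 CpG. The Gapdh window held none of the 4 motifs and had a GC content of 55.6% with 8 CpG. Over 32851 windows of the same length, 16.6% held ACGTG, 32.7% the GC box, 33.9% CCAAT and 12.4% TATAAA. A match is a run of letters and not a measured binding site, and no match says only that these letters are not in the window.

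The Mouse-GAPDH probes had their lowest group mean in day 28 OVA spleens. Mouse-GAPDH_3 was at 2.39 and 2.52 on the saline arrays of day 14, 2.51 and 2.42 on those of day 28, 2.55, 2.54, 2.48 and 2.44 on the OVA arrays of day 14, and 2.33, 2.28, 2.32 and 2.16 on those of day 28. All 4 day 28 OVA arrays lay below the other 8 arrays, which overlapped one another. Mouse-GAPDH_5 was at 4.85 and 5.09 on the saline arrays of day 14, 4.93 and 5.03 on those of day 28, 5.06, 5.03, 4.98 and 5.25 on the OVA arrays of day 14, and 4.93, 4.78, 4.78 and 4.58 on those of day 28. Here the day 28 OVA arrays lay below all day 14 OVA arrays and below both saline arrays of day 28, but the highest of them equalled the lower of those saline arrays at 2 decimals and was above 1 saline array of day 14. By group mean, both probes had the order OVA day 28, saline day 14, saline day 28, OVA day 14 from low to high, and the upper 3 groups were within 0.11 of each other.

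The Mouse-PGK1 probes did not share that order. Mouse-PGK1_3 was at 1.80 and 1.87 on the saline arrays of day 14, 2.02 and 1.78 on those of day 28, 1.90, 1.85, 1.71 and 1.99 on the OVA arrays of day 14, and 2.12, 2.06, 2.09 and 2.05 on those of day 28. It was thus highest on the 4 day 28 OVA arrays, which overlapped no other group. Mouse-PGK1_5 was at -1.22 and -1.03 on the saline arrays of day 14, -1.04 and -0.89 on those of day 28, -0.99, -0.82, -0.92 and -0.61 on the OVA arrays of day 14, and -1.08, -0.95, -0.89 and -1.09 on those of day 28. For this probe the day 28 OVA arrays overlapped every other group, and only the 2 day 14 groups were apart from each other.

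Among the 12 probes, Human-PGK1_5 had the widest range of group means. It was at -2.32 and -2.47 on the saline arrays of day 14, -2.29 and -1.97 on those of day 28, -2.24, -2.51, -2.45 and -2.19 on the OVA arrays of day 14, and -1.36, -1.24, -1.30 and -1.38 on those of day 28. The 4 day 28 OVA arrays stood above the 8 others, with no overlap. Human-PGK1_3 had a mean of 1.31 ± 0.13 (SD, n = 2) on saline day 14, 1.43 ± 0.05 (n = 2) on saline day 28, 1.33 ± 0.13 (n = 4) on OVA day 14 and 1.62 ± 0.05 (n = 4) on OVA day 28, and its day 28 OVA range of 1.57 to 1.68 also lay above all other arrays. Human-GAPDH_5 was at 2.34 ± 0.05 and 2.31 ± 0.01 on the saline arrays of days 14 and 28 (n = 2 each), 2.67 ± 0.12 on OVA day 14 and 2.08 ± 0.06 on OVA day 28 (n = 4 each). Its OVA groups lay on opposite sides of the saline arrays, the range of day 14 being 2.55 to 2.78 and that of day 28 being 2.00 to 2.14. Human-GAPDH_3 was at 5.43 ± 0.12 and 5.42 ± 0.13 on the saline arrays (n = 2 each), 5.43 ± 0.06 on OVA day 14 and 5.15 ± 0.14 on OVA day 28 (n = 4 each), and its day 28 OVA arrays, between 4.97 and 5.30, lay below all others.

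No rat version passed limma's test in any comparison of levels between groups, except Rat-PGK1_3 when the background was corrected by normexp. Rat-GAPDH_3 had group means between 2.68 and 2.74, and Rat-GAPDH_5 between 4.57 and 4.75. Rat-PGK1_5 had group means between -1.34 and -1.08, and Rat-PGK1_3 between -3.30 and -3.04, with an SD of up to 0.23 within a group. For all 4 rat probes, the day 28 OVA arrays overlapped the saline arrays of day 28 and the OVA arrays of day 14.

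Whether OVA moved these transcripts at day 14 was asked with 4 OVA against 2 saline arrays. By limma's moderated test on all 12 arrays (8 residual degrees of freedom, Benjamini-Hochberg adjustment over 72527 features), 0 of the 12 probes passed an adjusted p of 0.05, beside 0.0676% of all features. At an unadjusted p under 0.05 (14.7% of all features) there were 2, Human-GAPDH_5, higher by 0.33 (SE 0.10, adjusted p = 0.192), and Mouse-PGK1_5, higher by 0.29 (SE 0.12, adjusted p = 0.312). All 12 differences were positive, with a median of 0.08 beside a median of 0.05 over all features. However, 9 of them were negative when the arrays were scaled on their spike-in controls, a scaling that moved the median of all features from 0.05 to -0.21. Quantile normalization made 6 negative, as did the percentile over probes well above background. With normexp 5 were negative, and 5 without saline day 14 replicate 1. The arrays of the groups did not overlap for 5 probes (Human-GAPDH_5, Mouse-PGK1_5, Rat-GAPDH_3, Rat-GAPDH_5 and Rat-PGK1_5), all higher in OVA, where 23.1% of all features did not overlap.

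At day 28, 1 of the 12 probes passed, Human-PGK1_5, beside 14.1% of all features. It was higher in OVA spleens by 0.81 (SE 0.13, limma adjusted p = 0.00366), which is 1.75-fold, in 4 of 4 OVA arrays. The call held under all 28 alternative settings, with differences from 0.43 to 0.97, the lower value coming from a background correction that adds 50 to every signal. Some of these settings could not alter the difference. Leaving out saturated spots removed 0 spots, and leaving out a day 14 array changes only the estimate of the spread. Without saline day 28 replicate 1 the difference was 0.65 (adjusted p = 0.0397). The other PGK1 probes did not pass: Human-PGK1_3 differed by 0.19 (SE 0.11), Mouse-PGK1_3 by 0.18 (SE 0.11), Mouse-PGK1_5 by -0.04 (SE 0.12), Rat-PGK1_5 by 0.05 (SE 0.12) and Rat-PGK1_3 by 0.02 (SE 0.15). With normexp, Human-PGK1_3 passed at 0.24 (adjusted p = 0.0402), a setting in which 27654 of 72527 features passed.

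None of the 6 GAPDH probes passed at day 28. The Human-GAPDH_3 difference was -0.27 (SE 0.11, adjusted p = 0.134), that of Human-GAPDH_5 -0.23 (SE 0.10, adjusted p = 0.142), that of Mouse-GAPDH_5 -0.21 (SE 0.12) and that of Mouse-GAPDH_3 -0.19 (SE 0.09). For each of these 4 probes, all 4 OVA arrays were below both saline arrays. The rat versions differed by 0.02 (Rat-GAPDH_3, SE 0.12) and 0.14 (Rat-GAPDH_5, SE 0.10), with overlapping arrays. In all, 3 of the 12 probes had an unadjusted p under 0.05, which 30.2% of all features had, and 7 had arrays that did not overlap, where 42.2% of all features did not overlap.

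The largest number of calls came from OVA spleens at day 28 against day 14 (4 against 4 arrays), with 6 of the 12 probes passing, beside 34.1% of all features. Of these calls, 2 were higher at day 28, both of them human versions of PGK1 (15% of all features were called higher). The other 4 were lower, the human and mouse versions of GAPDH (19.1% called lower). The rat versions of both genes and the mouse versions of PGK1 were not called, and these counts were not tested against the shares of all features. Human-PGK1_5 rose by 1.03 (SE 0.10, limma adjusted p = 8e-05), which is 2.04-fold, and Human-PGK1_3 rose by 0.29 (SE 0.09, adjusted p = 0.0239). Human-GAPDH_5 fell by 0.59 (SE 0.08, adjusted p = 0.000473), Mouse-GAPDH_5 fell by 0.31 (SE 0.10, adjusted p = 0.0352), Human-GAPDH_3 fell by 0.28 (SE 0.09, adjusted p = 0.0368) and Mouse-GAPDH_3 fell by 0.23 (SE 0.08, adjusted p = 0.0367).

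The members that did not pass in that comparison were all 4 rat probes, with differences between -0.12 and 0.04, and both Mouse-PGK1 probes. Mouse-PGK1_3 differed by 0.22 (SE 0.09, adjusted p = 0.0752) and Mouse-PGK1_5 by -0.17 (SE 0.10, adjusted p = 0.225). In 5 of 28 alternatives Mouse-PGK1_3 did pass, with differences from 0.23 to 0.33 (spike-in, quantile and percentile scaling, array weights and normexp, adjusted p from 0.0038 to 0.0441). Mouse-PGK1_5 passed as lower with normexp alone (-0.20, adjusted p = 0.0282). With that correction the median of all features was -0.23, and 38308 of 72527 were called lower. At an unadjusted p under 0.05 there were 7 probes, beside 44.8% of all features. Arrays did not overlap for 7 probes, namely the 6 that passed and Mouse-PGK1_3, where 36.7% of all features did not overlap. Beside these differences, the 75th percentile to which levels are scaled was higher on the day 28 OVA arrays (484 to 549) than on the day 14 OVA arrays (267 to 288), and its part in the result was not tested.

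These 6 calls were not equally stable. Human-PGK1_5 and Human-GAPDH_5 passed under all 28 alternatives, with differences from 0.44 to 1.15 and from -0.63 to -0.47. Some of the alternatives, such as the fits without a saline array, could not alter these differences. The 3 other GAPDH calls were lost with spike-in scaling, where Human-GAPDH_3 differed by -0.17, Mouse-GAPDH_5 by -0.19 and Mouse-GAPDH_3 by -0.11 (adjusted p from 0.222 to 0.464). They were also lost with the background correction that adds 50 (adjusted p from 0.0974 to 0.189). Of the 28 alternatives, 12 ended the call of Human-GAPDH_3, 12 that of Mouse-GAPDH_5, 15 that of Mouse-GAPDH_3 and 6 that of Human-PGK1_3. Human-GAPDH_3 and Mouse-GAPDH_5 lost their calls without OVA day 14 replicate 1, 2 or 4 or OVA day 28 replicate 2, 3 or 4 (adjusted p from 0.0522 to 0.0962). Mouse-GAPDH_3 did so without OVA day 14 replicate 1, 2 or 3 or any 1 of the day 28 OVA arrays (adjusted p from 0.0521 to 0.0912). The count of 6 fell to 3 without OVA day 14 replicate 1, OVA day 28 replicate 2 or OVA day 28 replicate 4, and to 2 without OVA day 14 replicate 2 (the array that stood apart) or OVA day 28 replicate 3. Without OVA day 14 replicate 2, Human-PGK1_5 differed by 0.98 (adjusted p = 0.000282) and Human-GAPDH_5 by -0.63 (adjusted p = 0.000971). Human-PGK1_3 lost its call without OVA day 14 replicate 2 or 3, or without OVA day 28 replicate 1 or 3 (adjusted p from 0.0538 to 0.0698).

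Saline spleens of day 28 and day 14, which shared a slide, gave 0 calls among the 12 probes by limma, beside 0.00138% of all features. At an unadjusted p under 0.05 there were also 0, beside 10.3% of all features. The differences were between -0.02 and 0.27, with a median of 0.05 beside 0.03 over all features, and the largest was that of Human-PGK1_5. Arrays did not overlap for 2 probes, where 37% of all features did not overlap.

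The difference between the OVA effects of the 2 days was tested as an interaction. It passed for 1 probe, Human-PGK1_5, whose effect was larger at day 28 by 0.77 (SE 0.18, limma adjusted p = 0.0463), beside 2.95% of all features. The call was lost in 16 of 27 alternatives, among them 11 of the 12 fits that left out 1 array, with adjusted p from 0.0525 to 0.138, the exception being the fit without saline day 14 replicate 2. For Human-GAPDH_5, the effect was lower at day 28 by a difference of -0.56 (SE 0.14, adjusted p = 0.0566), which did not pass, although it did in 3 of 27 alternatives (adjusted p from 0.026 to 0.034). At an unadjusted p under 0.05 there were these 2 probes, beside 22.3% of all features. The other 10 probes had adjusted p of 0.294 or above.

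The _3 and _5 probes of a gene were then compared within each array, since their difference does not depend on how the array is scaled. For Human PGK1, _3 minus _5 was 3.54 and 3.87 on the saline arrays of day 14, 3.68 and 3.43 on those of day 28, 3.64, 3.72, 3.68 and 3.67 on the OVA arrays of day 14, and 3.00, 2.82, 2.98 and 2.95 on those of day 28. The gap was thus narrower on all 4 day 28 OVA arrays than on any other. Between the OVA days it changed by -0.74 (two-sided exact permutation p = 0.0286, the smallest that 4 against 4 arrays can give, and 0.229 after adjustment over the 24 tests of this kind). When the within-array differences were added to the limma fit, an alternative chosen after seeing the data, the adjusted p was 0.000296 between OVA days and 0.00812 for OVA against saline at day 28, where the change was -0.62. This gap contains the Human-PGK1_5 values given above, which rose by 1.03 between the OVA days while Human-PGK1_3 rose by 0.29.

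Mouse PGK1 went the other way. Its _3 minus _5 was 2.89, 2.67, 2.63 and 2.61 on the OVA arrays of day 14 and 3.19, 3.01, 2.99 and 3.14 on those of day 28, a change of 0.38 (exact permutation p = 0.0286, adjusted 0.229, and limma adjusted p = 0.0171 in the added fit). The saline arrays, between 2.67 and 3.06, overlapped both OVA groups. Human GAPDH widened by 0.31 between the OVA days, from 2.77 ± 0.12 to 3.07 ± 0.09 (SD, n = 4 each, exact permutation p = 0.0286, adjusted 0.229, and limma adjusted p = 0.0274 in the added fit). Its mean on the saline arrays was 3.09 on day 14 and 3.11 on day 28 (n = 2 each), near that of OVA day 28. The group that stood apart was thus OVA day 14, whose arrays lay below all saline arrays.

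The remaining 3 gaps had no unadjusted exact p under 0.05 and were not called in the added limma fit. Mouse GAPDH had group means between -2.57 and -2.49, Rat GAPDH between -2.05 and -1.87, and Rat PGK1 between -2.08 and -1.94. By the exact test, 0 of the 24 comparisons passed after adjustment, 3 had an unadjusted p under 0.05, and the added limma fit called 4. With 4 against 2 arrays the exact p cannot go below 0.133, with 2 against 2 not below 0.333, and with 4 against 4 not below 0.0286. With these floors no comparison could pass after adjustment over the 24 tests, whatever its values. The count of 0 therefore says nothing about the gaps.

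Species versions of the same probe were compared in the same way, mouse minus human and mouse minus rat. They reuse the values of the single probes, so they are not independent of the results above. For PGK1_5, mouse minus human was 1.10 and 1.44 on the saline arrays of day 14, 1.25 and 1.08 on those of day 28, 1.25, 1.69, 1.53 and 1.57 on the OVA arrays of day 14, and 0.29, 0.29, 0.40 and 0.28 on those of day 28. The 4 day 28 OVA arrays thus lay below all others by a wide gap. Between the OVA days the change was -1.20 (exact permutation p = 0.0286, adjusted 0.152 over the 32 tests of this kind, and limma adjusted p = 4.8e-05 in the added fit). Against saline at day 28 it was -0.85 (exact permutation p = 0.133, and limma adjusted p = 0.004 in the added fit).

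The rat version of PGK1_5 followed the mouse version more closely. Mouse minus rat was 0.23, 0.26, 0.25 and 0.29 on the OVA arrays of day 14 and 0.10, 0.06, 0.08 and 0.06 on those of day 28, a change of -0.18 with no overlap (exact permutation p = 0.0286, adjusted 0.152, and limma adjusted p = 0.0574 in the added fit). The unscaled signals show the same contrast. From the day 14 to the day 28 OVA arrays, Mouse-PGK1_5 went from a range of 145 to 181 to a range of 233 to 263, and Rat-PGK1_5 from 124 to 148 to a range of 218 to 253. Human-PGK1_5 went from 46.8 to 60.7 to a range of 191 to 216. On the saline arrays of both days, the ranges were 157 to 171 for Mouse-PGK1_5, 131 to 155 for Rat-PGK1_5 and 57.9 to 80.8 for Human-PGK1_5. All 3 probes were thus brightest on the day 28 OVA arrays, on which the 75th percentile was also highest.

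Differences between GAPDH versions also changed between the OVA days. For GAPDH_5, mouse minus rat was 0.29, 0.40, 0.36 and 0.42 on the OVA arrays of day 14 and 0.07, 0.00, 0.07 and -0.07 on those of day 28, a change of -0.35 that brought the 2 versions close to equal signal (exact permutation p = 0.0286, adjusted 0.152, and limma adjusted p = 0.00942 in the added fit). It was 0.25 to 0.55 on the saline arrays, so the day 28 OVA arrays were below all others. Mouse minus human for GAPDH_5 changed by 0.28, from 2.41 ± 0.10 to 2.69 ± 0.09 (SD, n = 4 each, exact permutation p = 0.0286, adjusted 0.152, and limma adjusted p = 0.0389 in the added fit). On the saline arrays this difference had a mean of 2.63 on day 14 and 2.67 on day 28 (n = 2 each). These means were nearer to OVA day 28 than to OVA day 14. For GAPDH_3, mouse minus rat changed by -0.18 (exact permutation p = 0.0286, adjusted 0.152) and mouse minus human by 0.05 (exact permutation p = 0.371), neither of which passed in the added fit.

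For PGK1_3, mouse minus human was 0.54 ± 0.07 on the OVA arrays of day 14 and 0.46 ± 0.03 on those of day 28 (SD, n = 4 each, exact permutation p = 0.0286, adjusted 0.152, and limma adjusted p = 0.513 in the added fit). Mouse minus rat changed by 0.34, with overlapping arrays (exact permutation p = 0.0571, and limma adjusted p = 0.0427 in the added fit), and it rests on the dimmest probe, Rat-PGK1_3. Over all 32 comparisons of species versions, the exact test passed 0 after adjustment and 6 had an unadjusted p under 0.05, while the added limma fit called 6. Here too, no comparison could pass the exact test after adjustment, whatever its values. Which mouse transcript pairs with a human or rat version was not tested.

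Other features whose level followed the same course over the 12 arrays were ranked by the root-mean-square difference between profiles centred on their own mean. The mean of the Mouse-GAPDH probes varied around its own mean by 0.13 on this measure. The closest features with a gene symbol were 1700084E18Rik at 0.06, Gm13315 at 0.08 and Gm40339 at 0.08, and the closest of any kind were NONMMUT042549 at 0.04, A_52_P623226 at 0.05 and A_55_P2037425 at 0.05. Between the OVA days Mouse-PGK1_3 differed by 0.22 and Mouse-PGK1_5 by -0.17, neither of them called. The mean of these probes is therefore the course of neither alone. This mean varied by 0.10, and the closest features with a symbol were Gm42213 at 0.06, Gm40898 at 0.08 and Gm42358 at 0.10. The closest of any kind were A_55_P1975670 at 0.06, A_51_P401730 at 0.06 and the Gm42213 probe. The third PGK1 neighbour with a symbol thus differed from the profile by about as much as the profile varied. How close the best of so many features would come without any link was not tested.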

How the data were processed

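Spleen RNA of 12 arrays was measured in 4 groups. The deposited scanner files give a linear intensity for each spot. Their headers name Agilent Feature Extraction 11.5.1.1, and the submitters' processing notes name version 9.1. The processed signal is background-corrected and not normalized between arrays, and the flags come from the same program. Spots flagged as outliers were left out, log2 signals were averaged over the spots of a probe, and the 75th percentile of the array over non-control spots was subtracted. Groups were compared with limma 3.58.1 (R 4.3.3), one model over all 12 arrays, with Benjamini-Hochberg adjustment, and within-array differences with two-sided exact permutation tests (scipy 1.17.1). The normexp alternative used the median spot signal and an offset of 50, since the files have no mean signal column, contrary to the plan. Replicate numbers were not taken as pairs: correlations of same-numbered arrays were between -0.18 and 0.32.

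The members, the lists and the tests were chosen with earlier results of these data known. All 12 probes are named, the mouse versions array by array and Human-PGK1_5 likewise, which was added after its values were seen. The neighbours are the 3 closest features with a symbol and the 3 closest of any kind. Symbols came from RefSeq for 4658 of 13019 probes with a RefSeq accession in the probe name, and other probes were given no symbol. The deposited value table holds none of these probes and was not used. Precision is limited by 2 to 4 arrays per group. The limma script was tested on simulated data with the spread of these features. Few of the 72527 simulated features were changed, 67 of them by 0.5 on the log2 scale. Of these 67, it recovered 11.9% for OVA against saline at day 14, 13.4% at day 28 and 32.8% between OVA days. In the data, 14.1% of all features were called at day 28 and 34.1% between OVA days. The adjustment therefore differs there, and the recovery rates for those 2 comparisons do not carry over to the data. A probe that did not pass is not shown to be unchanged.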

Additional observations from a re-analysis of the deposited data

Results flagged for a closer look

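The OVA effect differed between the days for Human-PGK1_5, by 0.77 on the log2 scale (limma interaction, adjusted p = 0.0463), a call that most fits without 1 array lost. The within-array difference PGK1_5 mouse minus human was flagged too, at -1.09 (SE 0.19, limma adjusted p = 0.0206 in the fit added after seeing the data). It contains the same Human-PGK1_5 values and is not a separate result. The slides differ between the groups in both cases. Among 24 sets of 4 OVA arrays (12 probes, 2 days), 0 held an array past Dixon's 95% limit.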

How the results depend on the processing

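Over 28 alternatives per comparison, 0 probes were called at day 14 and in the saline comparison under every setting. At day 28 the count was 1 except with normexp, where it was 3. Over all 72527 features, normexp called 27654 at day 28, against 10193 in the main fit. Between OVA days the main fit called 24715 of all features, and brackets below give such calls in other settings. The count of 6 there became 7 with array weights (29401), 5 with median scaling (23586), and 4 with spike-in scaling (19530) or the percentile over probes well above background (23385). It stayed 6 with normexp (47600). It became 3 with no filter on dim probes (22332 of 97107) and 2 with array position as a block (23258), and ranged from 2 to 6 with 1 array left out. With the replicate number as a block it was 2 (23190), and the interaction count 0 (391). The block changed no other count. The interaction count of 1 (2139 over all features) became 3 with normexp (22054). It was 2 with trend and robust estimates (4281) or with probes well above background on all arrays (3955 of 53772). It became 0 with median scaling (1440), array weights (495), position as a block (0) or no filter (329 of 97107), and ranged from 0 to 1 with 1 array left out. One value reversed: Rat-PGK1_3 at day 28 was -0.24 with normexp (adjusted p = 0.0373) against 0.02. The cause was not tested. The added limma fit called 4 of the _3 and _5 comparisons and 6 of the species comparisons. The exact test gave 0 and 0, but after adjustment it could not have passed any. In the single probes, 61 calls were lost, 12 gained and 113 values moved, while 1476 stayed. Normexp moved the median of all features from -0.06 to -0.23 between OVA days, from -0.03 to -0.15 at day 28 and from -0.07 to -0.21 in the interaction, and spike-in scaling moved it from -0.06 to 0.05 between OVA days.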
